A study of Mus musculus with 6 samples.

Results

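The genes described here are the mouse odorant receptors whose symbol is Olfr followed by a number from 90 to 140. Of 51 possible symbols, 48 were in the RefSeq gene table, and 42 were measured by a probe set with 1 gene symbol, among 19938 genes tested and beside 973 other odorant receptors. The members numbered 40 on chromosome 17, where they form the receptor cluster beside the major histocompatibility complex (MHC), while Olfr139 lay on chromosome 11 and Olfr140 on chromosome 2. Each member had 1 such probe set. The other 6 (Olfr98, Olfr100, Olfr102, Olfr126, Olfr128 and Olfr135) appeared only on probe sets that carry several receptor names, which are described at the end, and the numbers 104, 105 and 106 had no gene under a plain symbol.

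The tissue was the main olfactory epithelium (MOE) of E18.5 embryos on a C57BL/6 background. Cells were sorted from Fezf1-/- embryos (null, 3 arrays) and from Fezf1+/- embryos (heterozygous, 3 arrays). The targeted allele expresses EGFP from the Fezf1 promoter, so in both groups the sort kept cells that use this promoter, and both groups carry the targeted allele, with no wild-type array. Whether each array had its own embryo, litter or pool is not in the labels. Total RNA was read on Affymetrix Mouse Gene 1.0 ST arrays, and a level below is the deposited log2 signal, a background-corrected brightness on which 1 unit is a 2-fold difference.

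Odorant receptors are G protein-coupled receptors in the cilia of olfactory sensory neurons. Each mature neuron transcribes 1 allele of 1 receptor gene, chosen from clusters spread over most chromosomes, and the summed level of a receptor in a tissue therefore depends on how many neurons chose it and on how much each transcribes. Fezf1 encodes a zinc-finger repressor expressed in the developing nasal epithelium and forebrain. In bulk samples such as these, fewer cells of a type and less RNA per cell cannot be told apart. The chromosome 17 cluster is of interest in the field because receptor genes and class Ib MHC genes lie interleaved in the same stretch.

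In RefSeq order the cluster opened beside Gabbr1, a subunit of the GABA-B receptor, with Olfr90 to Olfr93. Ubd, a ubiquitin-like modifier gene, preceded Olfr94 to Olfr98, the class Ib MHC gene H2-M3 preceded Olfr99 to Olfr109, and H2-M2 preceded the long run of Olfr110 to Olfr138 that ended with Olfr136 beside Esp36. By the MOR subfamily names among the RefSeq synonyms, 16 members belonged to MOR256, 7 to MOR263, 7 to MOR218, 4 to MOR156 and 3 to MOR250.

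The sequences upstream of 5 of these genes are printed here to set members from both sides of H2-M2 beside each other. They were chosen after their values were seen. They hold the called gene Olfr124 and a pair of similar MOR263 genes with lower null means, not called (Olfr122 and Olfr119). The others are a pair from the opposite side of H2-M2 with differences near 0 (Olfr108 and Olfr90). The groups of Olfr122 overlapped (difference -1.03, SE 0.41, adjusted p = 0.512), and Olfr108 was close to background on every array. Each is the 250 bases before the RefSeq gene start in GRCm38.p6, 5′ to 3′. Capitals mark matches, on either strand, to TAATNA, the core of homeodomain sites, or to CCCNNGGG, the core of Ebf (Olf-1) sites. Both motifs are known from odorant receptor promoters. The windows lie at chr17:37804819-37805068 (plus strand) for Olfr124, chr17:37768392-37768641 (plus) for Olfr122, chr17:37696435-37696684 (plus) for Olfr119, chr17:37445230-37445479 (plus) for Olfr108 and chr17:37086237-37086486 (minus) for Olfr90.
Olfr124: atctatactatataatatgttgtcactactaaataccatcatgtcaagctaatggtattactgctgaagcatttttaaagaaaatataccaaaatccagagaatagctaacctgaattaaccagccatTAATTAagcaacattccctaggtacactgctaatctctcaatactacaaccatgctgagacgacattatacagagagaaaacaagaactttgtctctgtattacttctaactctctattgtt
Olfr122: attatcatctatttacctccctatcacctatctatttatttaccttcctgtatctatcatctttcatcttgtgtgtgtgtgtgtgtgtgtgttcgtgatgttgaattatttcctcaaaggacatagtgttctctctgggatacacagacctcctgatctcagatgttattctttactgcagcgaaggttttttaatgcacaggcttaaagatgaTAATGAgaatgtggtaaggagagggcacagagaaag
Olfr119: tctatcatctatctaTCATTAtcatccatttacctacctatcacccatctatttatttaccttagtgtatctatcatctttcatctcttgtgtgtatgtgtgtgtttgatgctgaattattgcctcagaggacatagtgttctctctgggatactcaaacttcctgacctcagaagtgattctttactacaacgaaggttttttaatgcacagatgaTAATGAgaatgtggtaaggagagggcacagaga
Olfr108: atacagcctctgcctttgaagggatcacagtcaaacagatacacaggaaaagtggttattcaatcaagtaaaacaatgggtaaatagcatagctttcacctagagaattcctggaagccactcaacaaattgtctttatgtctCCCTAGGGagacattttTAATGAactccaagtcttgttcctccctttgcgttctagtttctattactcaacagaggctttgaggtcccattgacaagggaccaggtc
Olfr90: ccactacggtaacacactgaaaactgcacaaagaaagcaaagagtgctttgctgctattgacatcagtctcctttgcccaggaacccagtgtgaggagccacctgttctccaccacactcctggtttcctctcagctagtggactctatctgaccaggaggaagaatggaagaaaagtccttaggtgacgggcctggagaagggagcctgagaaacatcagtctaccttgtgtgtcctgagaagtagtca

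The windows of Olfr122 and Olfr119 were identical at 215 of 267 aligned positions (80.5%), and the other pairs among the 5 at 45.3% to 51.0%. A TAATNA match stood in the windows of Olfr124, Olfr122, Olfr119 and Olfr108. Of the 33 members with a window in the table, 16 held TAATNA (48.5%), against 64.0% of 944 odorant receptor windows and 24.3% of all 32851 windows. CCCNNGGG stood in 2 of the 33, against 2.75% of odorant receptor windows and 11.8% of all windows. By side of H2-M2, TAATNA was in 10 of 19 windows of Olfr110 to Olfr136 and 5 of 12 windows of Olfr90 to Olfr109. For CCCNNGGG these counts were 0 of 19 and 2 of 12. In 21 of the 33 members the annotated gene start is the ATG itself, so for those the window may not be the promoter. A match is a string of letters and not a measured binding site.

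Fezf1 itself was measured at 5.56, 5.92 and 6.28 in null arrays, against 11.25, 11.12 and 11.30 in heterozygous arrays, a difference of -5.31 (SE 0.19, adjusted p = 0.00075), in the direction the labels give. Omp, the marker protein of mature olfactory neurons, averaged 10.23 in null and 11.92 in heterozygous arrays, above the median signal of every array (5.82 to 5.95). Null replicate 1 stood apart: it correlated with the other arrays at 0.905 to 0.935, while the other 5 correlated with each other at 0.975 to 0.995. On it, all 11 mesenchyme and bone markers and all 12 myeloid markers were at their highest of the 6 arrays, and all 12 mature neuron markers were at their lowest. The median of the mesenchyme and bone markers was 10.54, 6.89 and 6.70 in null arrays, against 6.88, 7.31 and 6.14 in heterozygous arrays, and that of the myeloid markers was 6.91, 5.33 and 5.21 in null arrays, against 5.14 to 5.16 in heterozygous arrays. The null arrays other than replicate 1 thus lay near the heterozygous arrays in both lists. Of the 42 receptors, 38 were lower on null replicate 1 than on both other null arrays, by a median of -0.82 against the mean of those 2. The part of these other cells in the receptor values was not tested, and the main results below are given with all 6 arrays and without this array.

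Most members had lower signals in null cells, by amounts that seldom passed the test gene by gene. The null mean was below the heterozygous mean in 41 of 42 members, with a median difference of -0.75 over members, against -0.73 over the 973 other odorant receptors and 0.02 over all genes. Over all 19938 genes the difference was negative in 9012. Past an adjusted p of 0.05, 1 member was lower in null cells, where 0.456% of all genes passed in this direction, and 0 were higher, where 0.0953% did. At an unadjusted p below 0.05, 19 members were lower and 0 higher, against 5.25% and 4.23% of all genes. All null arrays lay below all heterozygous arrays in 18 members and above them in 0, against 8.77% and 9.72% of all genes. The means differed by at least 2-fold in 14 members.

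Without null replicate 1 the median difference was -0.42 over members, -0.41 over other odorant receptors and 0.02 over all genes. The difference was then negative in 34 members and positive in 8, against 8916 and 11022 of all genes. In that fit 2 members were lower past an adjusted p of 0.05 and 0 were higher, against 1.67% and 0.993% of all genes. At an unadjusted p below 0.05, 17 were lower and 1 was higher, against 8.68% and 7.63%. The remaining null arrays lay below the heterozygous arrays in 18 members and above them in 2, against 16.3% and 19.9% of all genes. The number at least 2-fold lower was 8. Of the 973 other receptors, 77 were called lower with all arrays and 186 without null replicate 1.

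**Figure D1:**
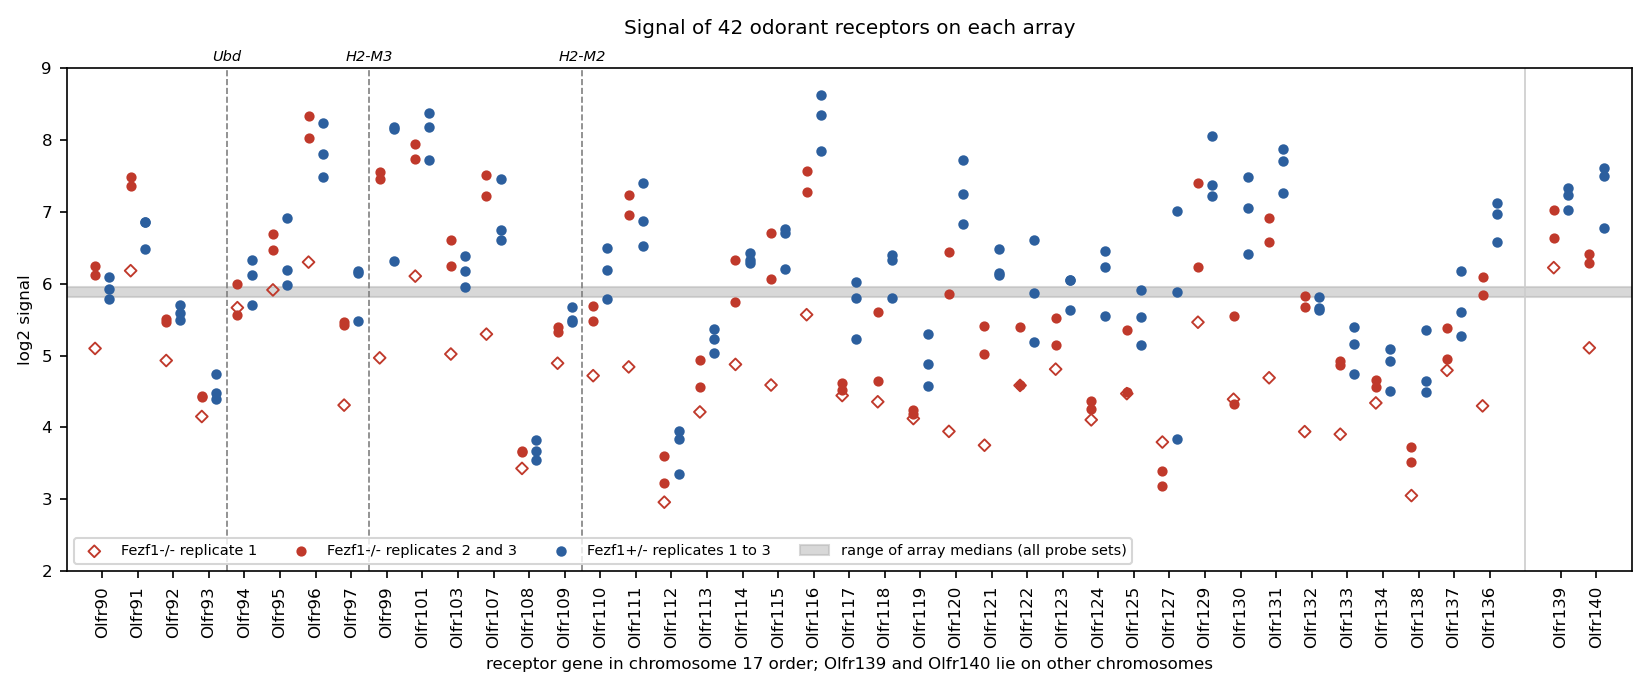
Log2 signal (vertical axis) of each of the 42 receptors on each array, in chromosome 17 order with Olfr139 and Olfr140 at the right, null arrays left of heterozygous arrays for each gene. Open diamonds are null replicate 1, which lies below both other null arrays in 38 receptors. All null points lie below all heterozygous points in 15 of the 26 receptors right of H2-M2 on chromosome 17 and 2 of the 14 left of it (8.77% of all genes).

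Olfr124 was the member that passed the threshold. Also known as SR1 or MOR256-3, it is a receptor of the septal organ and the main epithelium known for responding to many odorants. It measured 4.11, 4.37 and 4.26 in null arrays, against 5.55, 6.24 and 6.45 in heterozygous arrays. The groups did not overlap, and the null arrays lay close together. The difference was -1.83 (SE 0.24, adjusted p = 0.048), or 3.57-fold lower in null cells, and -1.77 without null replicate 1 (adjusted p = 0.020). The adjusted p ranged from 0.0050 to 0.283 over 13 alternatives, of which 5 called it. It did not pass without null replicate 2 (adjusted p = 0.180), null replicate 3 (0.168), heterozygous replicate 2 (0.226) or heterozygous replicate 3 (0.183). All 3 null values sit near the lower quartile of the arrays, 4.30 to 4.44, where differences are less certain.

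Of the receptors with the next smallest p, Olfr117, a MOR256 gene, measured 4.44, 4.62 and 4.52 in null arrays, against 5.23, 5.80 and 6.02 in heterozygous arrays. The groups did not overlap, and the difference was -1.15 (SE 0.21, adjusted p = 0.126). Olfr130, a further MOR256 gene, measured 4.39, 5.54 and 4.32 in null arrays, against 7.04, 6.42 and 7.49 in heterozygous arrays. With a difference of -2.23 (SE 0.42, adjusted p = 0.130), or 4.69-fold, it had the largest difference of the 42 with all 6 arrays, and its groups did not overlap. Leaving out null replicate 1, that of Olfr127, described below, was larger (-2.29). Olfr138, near the Esp36 end, measured 3.05, 3.52 and 3.73 in null arrays, against 4.64, 4.50 and 5.36 in heterozygous arrays (difference -1.40, SE 0.28, adjusted p = 0.158), again with no overlap. The null means of Olfr138 and of Olfr119, described next, were under each array's lower quartile, where differences are less certain. Without null replicate 1 the differences of Olfr117, Olfr130 and Olfr138 were -1.11, -2.05 and -1.21 (adjusted p = 0.059, 0.062 and 0.066), little different from those with all arrays.

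The next 3 by p were MOR263 genes in the run Olfr118 to Olfr122. Olfr119 measured 4.12, 4.25 and 4.18 in null arrays, against 4.58, 4.89 and 5.30 in heterozygous arrays. Olfr118 measured 4.36, 5.61 and 4.64 in null arrays, against 5.79, 6.32 and 6.40 in heterozygous arrays. Olfr121 measured 3.75, 5.41 and 5.02 in null arrays, against 6.12, 6.15 and 6.49 in heterozygous arrays. None of these groups overlapped, and in Olfr118 and Olfr121 the null arrays were spread over more than 1 unit while the heterozygous arrays were close together. The differences were -0.74 (SE 0.19, adjusted p = 0.269), -1.30 (SE 0.35, adjusted p = 0.304) and -1.53 (SE 0.42, adjusted p = 0.318). Without null replicate 1 they were -0.71, -1.05 and -1.04, and Olfr121 was then the second member past the threshold (SE 0.17, adjusted p = 0.027).

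The 8 members with the strongest signal in heterozygous cells had means there from 7.26 to 8.27, although signals of different probe sets do not rank the abundance of their genes. Olfr116 measured 5.57, 7.27 and 7.57 in null arrays, against 7.84, 8.34 and 8.62 in heterozygous arrays (difference -1.47, SE 0.54, adjusted p = 0.480). Olfr131 measured 4.69, 6.92 and 6.58 in null arrays, against 7.87, 7.26 and 7.71 in heterozygous arrays (-1.55, SE 0.59, adjusted p = 0.492). Olfr120 measured 3.95, 6.44 and 5.85 in null arrays, against 6.83, 7.24 and 7.71 in heterozygous arrays (-1.85, SE 0.65, adjusted p = 0.455). In these 3 the groups did not overlap, and null replicate 1 was far below every other array. Without it the differences of Olfr116, Olfr131 and Olfr120 were -0.85, -0.87 and -1.12. Olfr129 measured 5.46, 7.40 and 6.24 in null arrays, against 7.21, 7.37 and 8.05 in heterozygous arrays, and its groups overlapped through null replicate 2 (-1.17, SE 0.51, adjusted p = 0.540).

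The bright members on the Gabbr1 side of H2-M2 were Olfr101, Olfr96 and Olfr99. Olfr101, a MOR250 gene, measured 6.10, 7.73 and 7.94 in null arrays, against 8.37, 7.72 and 8.17 in heterozygous arrays. Olfr96, the MOR121 member, measured 6.30, 8.33 and 8.03 in null arrays, against 7.48, 7.81 and 8.23 in heterozygous arrays. Olfr99, a MOR156 gene, measured 4.97, 7.45 and 7.55 in null arrays, against 6.32, 8.14 and 8.18 in heterozygous arrays. In all 3 the groups overlapped and null replicate 1 was the lowest array. Their differences were -0.83 (SE 0.50), -0.29 (SE 0.55) and -0.89 (SE 0.85), none past the threshold, and without null replicate 1 they were -0.25, 0.34 and -0.05, so the sign of Olfr96 rested on that array. Leaving out heterozygous replicate 1 instead, they were -0.69, -0.47 and -1.51, none past the threshold. The value of Olfr99 thus depended on heterozygous replicate 1 as well, where it was far below the other heterozygous arrays.

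The members with the most positive differences were Olfr91, Olfr95, Olfr108 and Olfr90, all on the Gabbr1 side of H2-M2. Olfr91 measured 6.18, 7.36 and 7.48 in null arrays, against 6.85, 6.48 and 6.86 in heterozygous arrays. It was the member with a positive difference, 0.27 (SE 0.36, adjusted p = 0.816), and without null replicate 1 that was 0.69 (SE 0.14, adjusted p = 0.063), the 1 member higher at an unadjusted p below 0.05. Olfr95, the MOR263 gene on this side, measured 5.91, 6.69 and 6.46 in null arrays, against 6.19, 5.98 and 6.92 in heterozygous arrays (difference -0.01, SE 0.31). Olfr90 measured 5.10, 6.12 and 6.24 in null arrays, against 5.92, 5.79 and 6.09 in heterozygous arrays (-0.11, SE 0.31). Both were positive without null replicate 1, at 0.21 and 0.25. Olfr108 was near the bottom of the range on every array, between 3.43 and 3.83, so its difference of -0.09 (SE 0.12) compares values close to background.

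The differences varied with position along the cluster. The 26 members from Olfr110 to Olfr136, on the Esp36 side of H2-M2 and by position including Olfr137 and Olfr138, had a median difference of -0.95 (range -2.23 to -0.32). The 14 members from Olfr90 to Olfr109 had a median of -0.27 (range -0.89 to 0.27). On the Esp36 side 1 member was called, 17 were lower at an unadjusted p below 0.05 and 15 had null arrays entirely below heterozygous arrays, against 0, 0 and 2 on the Gabbr1 side. Over all genes these shares were 0.456%, 5.25% and 8.77%. Of all 1015 odorant receptors, members included, the counts were 78, 449 and 457. H2-M2 was taken as the border after the values were seen, so this is a description with no test.

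Each null array alone showed the same order. These comparisons share the genes, the heterozygous mean and the border chosen after the values were seen, so they are not independent. Against the heterozygous mean, the median on the Esp36 side and then the Gabbr1 side was -1.77 and -0.75 for null replicate 1, -0.66 and -0.05 for null replicate 2, and -0.74 and -0.01 for null replicate 3. Without null replicate 1 the 2 sides had median differences of -0.72 and -0.03, so the gap between sides was -0.68, against -0.67 with all 6 arrays.

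Other divisions of the cluster, made in the same genes and arrays and so not independent of the first, gave the same order. Read in 4 stretches from Gabbr1 to Esp36, split at Ubd, H2-M3 and H2-M2, the median differences were -0.16, -0.30, -0.30 and -0.95. The 20 members nearest Esp36 had a median of -1.24, against -0.33 for the 20 nearest Gabbr1. Across the 40 genes the rank correlation of order with difference was Spearman's rho = -0.61 with all arrays and -0.65 without null replicate 1, as a description: neighbouring genes share subfamilies and sequence, and the genes share 6 arrays. For each null array alone against the heterozygous mean, rho was -0.41, -0.60 and -0.67, while each heterozygous array against the mean of the other two gave -0.22, 0.15 and 0.25.

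**Figure D2:**
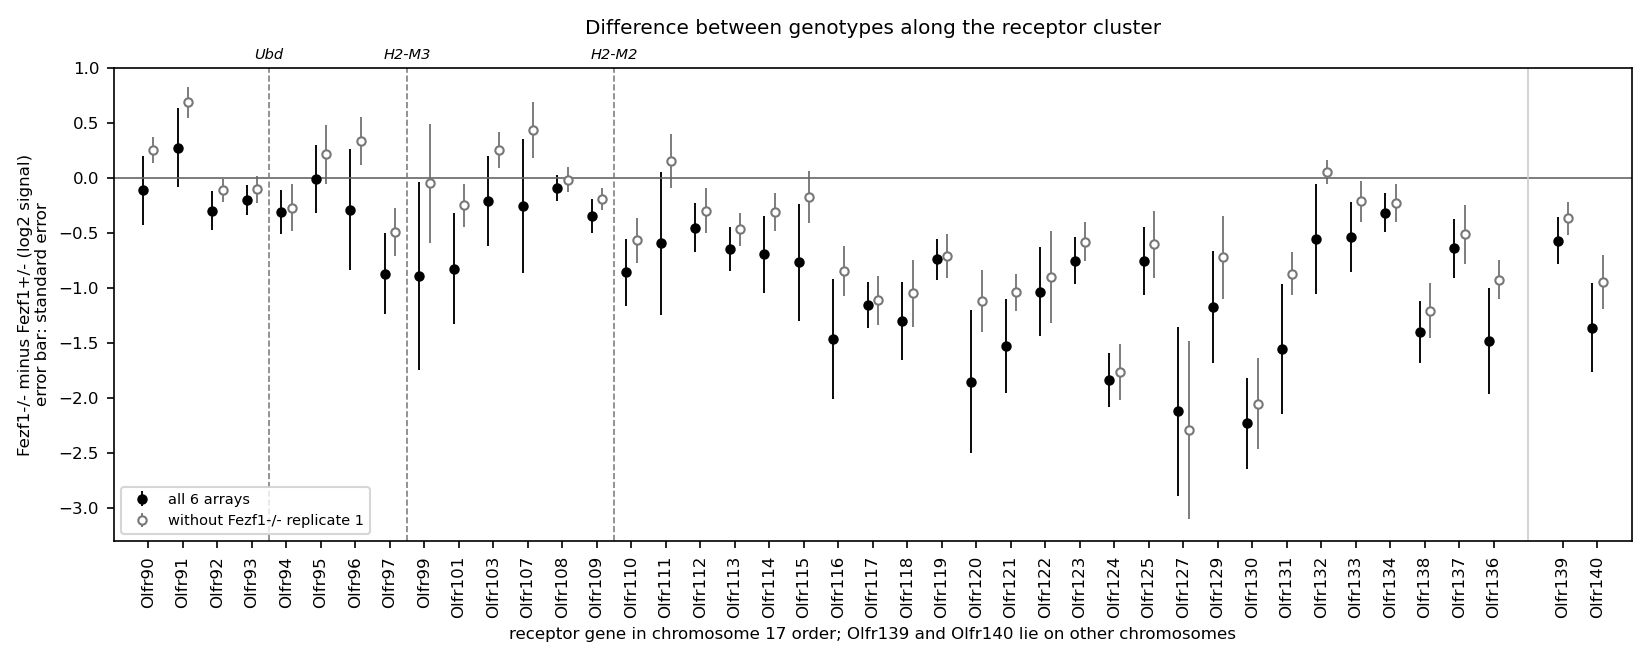
Difference between genotypes (null minus heterozygous, log2 signal, vertical axis) for each receptor in chromosome 17 order, with standard errors from limma. Filled points use all 6 arrays and open points leave out null replicate 1, and in both the points right of H2-M2 lie mostly below those left of it (medians -0.95 and -0.27 with all arrays, -0.72 and -0.03 without).

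Subfamily and position overlap, and their parts in the differences were not tested. MOR256 and MOR263 lie on both sides of H2-M2, MOR263 with 1 gene on the Gabbr1 side. In MOR256 the 11 members on the Esp36 side had a median difference of -1.15, and 7 were lower at an unadjusted p below 0.05, against -0.20 and 0 for the 5 members on the Gabbr1 side. At that p 5.25% of all genes and 449 of all 1015 odorant receptors were lower, and counts over so few members are uncertain. In MOR263 the 6 members on the Esp36 side (Olfr118 to Olfr122 and Olfr129) had a median of -1.24, against -0.01 for Olfr95. Those values without null replicate 1 were -0.87 and -0.10 in MOR256, and -0.97 and 0.21 in MOR263. The 7 MOR218 members, all on the Esp36 side, had a median of -0.76 (-0.47 without null replicate 1). The 4 MOR156 and the 3 MOR250 members, all on the Gabbr1 side, had medians of -0.56 and -0.35, which were -0.03 and -0.19 without null replicate 1.

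**Figure D3:**
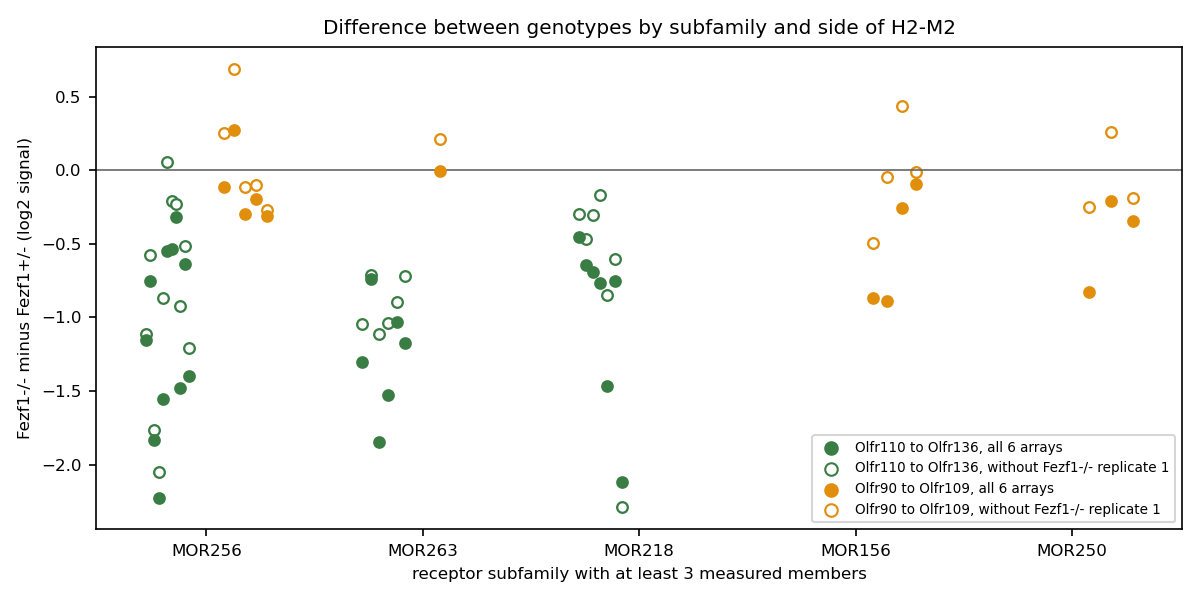
Difference between genotypes (null minus heterozygous, log2 signal) of each member of the 5 subfamilies with at least 3 measured members, split by side of H2-M2. In MOR256 and MOR263, which lie on both sides, the green points (Olfr110 to Olfr136) have medians of -1.15 and -1.24 and the orange points (Olfr90 to Olfr109) -0.20 and -0.01.

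The members outside chromosome 17 were not called. Olfr140, a MOR235 gene, measured 5.11, 6.41 and 6.29 in null arrays, against 6.78, 7.61 and 7.50 in heterozygous arrays, with no overlap (difference -1.36, SE 0.41, adjusted p = 0.365). Olfr139, a MOR255 gene, measured 6.22, 6.63 and 7.02 in null arrays, against 7.02, 7.33 and 7.23 in heterozygous arrays (-0.57, SE 0.22, adjusted p = 0.495). These differences were -0.94 and -0.37 without null replicate 1. The 2 other receptors measured on chromosome 17, outside the range, were Olfr63 and Olfr239, named after their values were seen. Olfr63 averaged 5.55 in null and 6.62 in heterozygous arrays (-1.07, adjusted p = 0.104) and Olfr239 averaged 7.96 in null and 8.69 in heterozygous arrays (-0.73, adjusted p = 0.329).

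Receptors of other chromosomes cover the same span as the cluster. Among the 12 chromosomes with at least 10 other receptors, the median difference ran from -1.13 on chromosome 13 (11 receptors) to 0.09 on chromosome 4 (21 receptors), and 6 of the 12 were lower and 6 higher than the members' median. The span between those chromosomes was wider than the gap between the sides of H2-M2 described above. A span between the extremes of 12 medians tends to exceed a single gap, so these widths cannot be compared directly. Receptors of other chromosomes were not split by position.

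Some receptors of the cluster were on the array only through probe sets they share, and 3 of these gave larger differences than the probe set of any member alone. A total of 7 probe sets carried the names of several receptors of the range, and all 7 had a negative difference. They were fitted among 23410 probe sets with at least 1 symbol, of which 0.431% were lower past the threshold (1.52% without null replicate 1), a fit added after the data were seen. A probe set named for Olfr126, Olfr127, Olfr128 and Olfr761 measured 4.13, 5.18 and 4.47 in null arrays, against 7.61, 7.40 and 8.40 in heterozygous arrays, a difference of -3.21 (SE 0.36, adjusted p = 0.028). The groups lay more than 2 units apart. A second probe set with the same names gave -2.97 (SE 0.33, adjusted p = 0.028), and one more, which also names Olfr115, gave -2.75 (SE 0.37, adjusted p = 0.054).

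These 3 probe sets carry the same gene names and are not independent, and which of the named genes gave the signal cannot be told apart. Without null replicate 1 the differences were -2.98, -2.72 and -2.38 (adjusted p = 0.010, 0.0076 and 0.0057). Over 12 alternatives the adjusted p of the first ran from 0.0057 to 0.260, with differences from -3.51 to -2.85, and 5 alternatives called it. When any array other than null replicate 1 was left out, its adjusted p lay between 0.055 and 0.132. Olfr127 alone, on its own probe set, measured 3.80, 3.39 and 3.19 in null arrays, against 3.84, 5.89 and 7.01 in heterozygous arrays. The null arrays were all near background and the heterozygous arrays were spread over more than 3 units, so its difference of -2.12 had an SE of 0.77. Of the other 4 shared probe sets, the one for Olfr133, Olfr134 and Olfr135 gave -0.91, Olfr97 with Olfr98 gave -1.01, Olfr90 with Olfr92 gave -0.58 and Olfr100 with Olfr102 gave -0.36, none past the threshold.

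**Figure D4:**
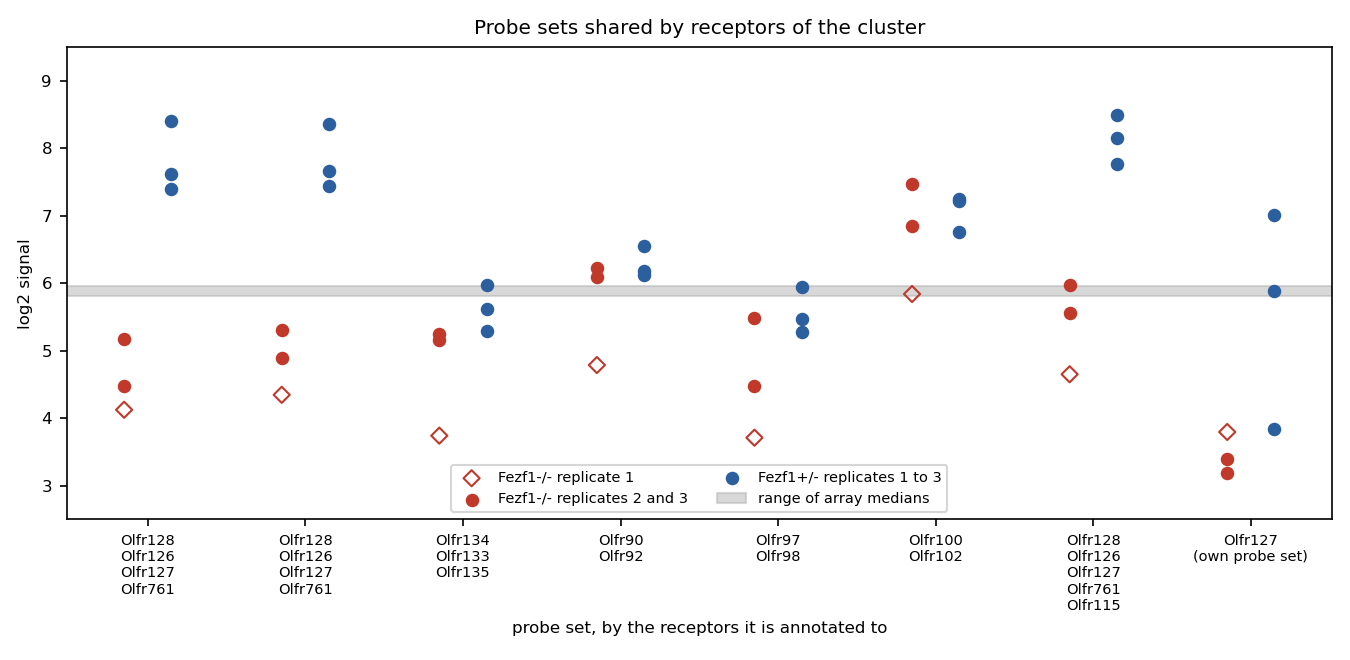
Log2 signal (vertical axis) of the 7 probe sets that carry several receptor names, and of the probe set of Olfr127 alone at the right, null arrays left of heterozygous arrays. In the 3 probe sets that name Olfr126, Olfr127 and Olfr128 all null arrays lie below all heterozygous arrays, by differences of the means of -3.21, -2.97 and -2.75.

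The genes between and beside the receptors had median differences near 0. Of 16 measured MHC genes near the cluster 0 were called, with a median difference of 0.12, and of 24 other neighbouring genes 0 were called, with a median of -0.02 (0.10 and 0.04 without null replicate 1). At an unadjusted p below 0.05 these lists had 0 lower and 1 higher, and 0 lower and 0 higher. Leaving out null replicate 1, they had 0 lower and 4 higher of the 16 MHC genes, and 1 lower and 0 higher of the 24 others. H2-M10.3, a class Ib MHC gene, was the 1 MHC gene higher with all arrays, at 5.24 in null and 4.96 in heterozygous arrays. The genes that stand among or border the receptors had differences of -0.55 for Gabbr1 (-0.10 without null replicate 1), -0.02 for Ubd, 0.19 for H2-M3 and 0.01 for H2-M2. Ubd, H2-M3 and H2-M2 were themselves near the bottom of the range in both genotypes, with means from 3.95 to 4.99. The list of 16 MHC genes was low as a whole. In both genotypes the median of its gene means lay close to the lower quartile of the arrays (4.30 to 4.44), where differences are less certain. A lower level of these MHC genes in null cells could therefore have been missed.

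Genes that serve odorant receptors also had lower means in null than in heterozygous cells. Of 16 genes of odorant transduction and receptor trafficking, 0 passed the adjusted threshold and 12 were lower at an unadjusted p below 0.05, with a median difference of -1.18, and without null replicate 1, 5 passed and the median was -0.84. The smallest p belonged to Slc24a4 and Pde1c. Slc24a4, the potassium-dependent sodium-calcium exchanger of cilia, averaged 6.58 in null and 7.65 in heterozygous arrays (adjusted p = 0.064). Pde1c, the cilium's calmodulin-dependent phosphodiesterase, averaged 7.39 in null and 8.35 in heterozygous arrays (adjusted p = 0.069). Among 12 measured mature neuron markers, 0 passed and 9 were lower at an unadjusted p below 0.05 (median -1.43). In the fit that leaves out null replicate 1, 4 of the 12 passed, Omp, Kirrel2, Stoml3 and Adcy3, and the median was -0.92. Kirrel2 and Cnga4 had the smallest p, at 7.14 and 6.35 in null arrays, against 8.81 and 8.07 in heterozygous arrays. The part of these neuron markers in the receptor values was not tested.

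Factors known to act on receptor choice were nearer 0. Of 20 measured, 0 passed and 1 was lower at an unadjusted p below 0.05, with a median of -0.15. The 1 gene was Ebf4, a member of the Olf/EBF family, at 8.01 in null and 8.83 in heterozygous arrays, followed by Ddit3 at 6.78 in null and 7.38 in heterozygous arrays. Leaving out null replicate 1, the median was 0.04, 3 were lower at that p, and 1 passed, Nfix, a nuclear factor I gene (-0.72, adjusted p = 0.042). With all arrays the difference of Nfix was -0.20 (SE 0.44, adjusted p = 0.890), and its highest value was on null replicate 1 (9.06). Immature neuron markers had a median difference of -0.12, with 0 of 12 called, and 1 higher and 0 lower at an unadjusted p below 0.05. Without null replicate 1 the median was 0.32, 10 of 12 were positive, and 7 were higher and 0 lower at that p. In that fit 2 were called higher, Chl1, a cell adhesion molecule (0.77, adjusted p = 0.013), and Stmn4 (0.94, adjusted p = 0.024). Housekeeping genes had a median of -0.07. On null replicate 1 the immature markers were lower than on the other null arrays by a median of -1.22, with 11 of 12 at their lowest of the 6 arrays and Chl1 at its highest.

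**Figure D5:**
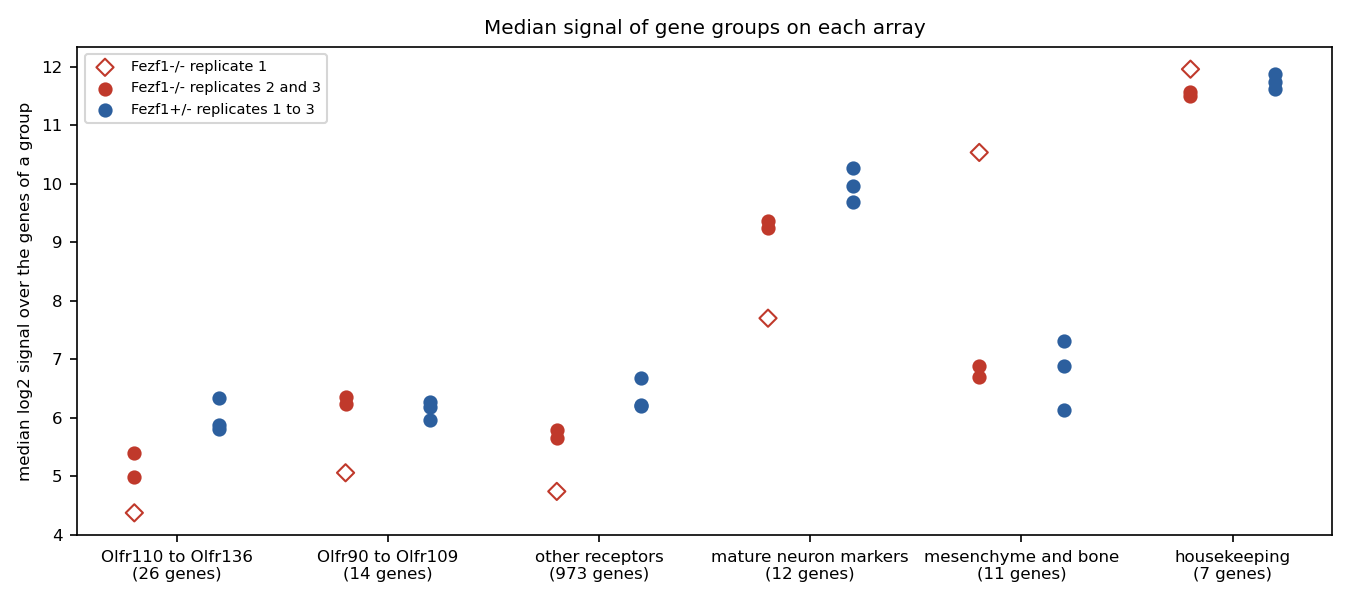
Median log2 signal (vertical axis) over the genes of each group on each array, null arrays left of heterozygous arrays. Olfr110 to Olfr136, other receptors and mature neuron markers lie lower on every null array than on any heterozygous array, Olfr90 to Olfr109 does so on null replicate 1 alone, and that array stands far above the others for mesenchyme and bone markers.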

How the data were processed

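The authors deposited 1 log2 signal for each probe set and array. GCRMA and Affymetrix Expression Console are the programs named, per the submitters' processing notes. Versions, filters and batches are not given in the sources used here, and the log base was taken as 2 from the range of the values (2.14 to 14.51). GCRMA corrects for background, and differences between low values are less certain. The 3 arrays in a group limit the precision.

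Of 35557 probe sets, 21789 had exactly 1 gene symbol in the annotation, and 21698 of these symbols were updated through Entrez numbers to RefSeq names. Where a gene had several, the brightest on average over the 6 arrays was used. The genotypes were compared by limma's two-sided moderated test (lmFit, then eBayes, version 3.58.1, under R 4.3.3). The p-values were adjusted by Benjamini and Hochberg's method over 19938 genes and called below 0.05. All adjusted p-values are from limma, and they measure the spread between these samples, which may be technical. No filter on low values was used. An exact permutation test of 3 against 3 arrays cannot give a p below 0.1 and was not run.

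Named receptors were those past the threshold, the 6 next smallest p below 0.05, the 8 highest heterozygous means, the 4 most positive differences and members off chromosome 17. Beside them Fezf1 and the 2 smallest p of each list were named. The members and lists were chosen with earlier results of these data known, and others named (Omp, Stoml3, Adcy3, Nfix, Stmn4, Ermn, Olfr103, Olfr107, Olfr111, Olfr112, Olfr122, Olfr127, Olfr132, the genes bordering the receptors) were chosen after their values were seen. Alternatives were quantile normalisation, median centring, a filter on genes above the median, averaged probe sets, trend and robust eBayes, array weights, an unmoderated test, a block for the replicate number, and the removal of each array in turn. Deviations from the group means correlated at 0.23, -0.33 and 0.54 between samples with replicate numbers 1, 2 and 3. The labels state no design and replicate 2 did not deviate together, so the numbers were not taken as pairs. These correlations cannot settle pairing, since each null deviation is taken from a mean that includes null replicate 1. Gene order, MOR names and upstream windows are RefSeq's, GRCm38.p6.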

Additional observations from a re-analysis of the deposited data

How the results depend on the processing

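The count of members lower past the threshold (1 in the reported fit) was 0 with quantile normalisation, with median centring, with genes above the median only, with the unmoderated test and with the replicate block, 3 with array weights, and 0 to 2 when each array was left out in turn. At an unadjusted p below 0.05 the count lower was 19 in the reported fit, where 5.25% of all genes were lower. It was 9 with the unmoderated test and 8 to 22 without 1 array, falling to 11 without heterozygous replicate 2 and 8 without heterozygous replicate 3. With genes above the median only it was 4, but that fit tests fewer members, so its counts cannot be set against the others. Shares over all genes in the alternative fits are not given here. The count higher at that p (0) was 1 with array weights and 0 to 1 without 1 array. With genes above the median only, which tests fewer members, 3 had null arrays below all heterozygous arrays (18 in the reported fit), and the gap between the sides of H2-M2 was -1.03 (-0.67). The median difference of the members stayed negative in all 14 alternatives, from -0.96 to -0.42. Olfr124 kept its sign in the 13 alternatives that tested it, and its adjusted p was 0.065 with quantile normalisation, 0.072 with centring, 0.283 unmoderated, 0.069 with the replicate block and 0.168 to 0.226 without null replicate 2 or 3 or heterozygous replicate 2 or 3. Olfr117 passed with array weights and without heterozygous replicate 1, Olfr138 with array weights, and Olfr121 without null replicate 1. Among the named receptors and shared probe sets, differences changed sign for Olfr96 (0.34 with array weights, -0.68 to 0.34 over the fits without 1 array), Olfr95 (0.0033 with quantile normalisation, 0.31 with array weights, -0.20 to 0.27 without 1 array, positive without null replicate 1, at 0.21, or heterozygous replicate 3), Olfr108 (0.0078 with array weights), Olfr90 (0.23 with array weights, -0.32 to 0.25 without 1 array) and the probe set of Olfr100 and Olfr102 (0.0058 with array weights, -0.73 to 0.083 without 1 array). For Olfr96, Olfr90 and that probe set the positive value came without null replicate 1, where 4 other members were also positive, Olfr103 (0.26), Olfr107 (0.44), Olfr111 (0.15) and Olfr132 (0.05). Of 269 comparisons of a named receptor with an alternative, 248 kept both sign and side of the threshold. The first 2 shared probe sets of Olfr126 to Olfr128 lost their calls with the unmoderated test (adjusted p = 0.260 and 0.251), with the replicate block (0.094 and 0.081) and when any array but null replicate 1 was left out. The cause of these changes was not tested. Signal over background limits the 6 members whose null mean was below the lower quartile of every array, Olfr108, Olfr112, Olfr119, Olfr124, Olfr127 and Olfr138.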

Other observations

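Markers of other cells that the sort could hold were read from the same fit. Of 7 vomeronasal neuron markers 1 was called, Gnai2, a G protein alpha subunit of apical vomeronasal neurons, at 10.47, 10.36 and 10.36 in null arrays, against 9.20, 9.42 and 9.06 in heterozygous arrays (difference 1.17, adjusted p = 0.020), and Nsg1, the next by p, was at -0.56 (adjusted p = 0.685). Of 7 neuronal progenitor markers 0 were called, and Pax6 averaged 9.03 in null and 8.02 in heterozygous arrays while Kit averaged 8.62 in null and 7.88 in heterozygous arrays. Of 10 sustentacular markers 0 were called, with Krt8 at 0.67 and Muc2 at -0.40 and a median of -0.15. In the fit that leaves out null replicate 1 the sustentacular median was -0.56, 9 of 10 were negative, and 1 passed, Ermn (-0.96, adjusted p = 0.024), chosen after its value was seen. Neither the 11 mesenchyme and bone markers, the 12 myeloid markers nor the 6 ensheathing glia markers held a call, and their median differences were 1.23, 0.77 and 0.38, which were -0.06, 0.06 and 0.07 without null replicate 1. The smallest p in these lists belonged to Sp7 and Col2a1, to S100a9 and Cd68, and to Ngfr and S100b. Among 24 neighbouring genes of the cluster Trim40 and Trim10 had the smallest p, with differences of 0.22 and 0.31, and among housekeeping genes Sdha and Tbp did, with -0.12 and -0.11. At an unadjusted p below 0.05 the progenitor, sustentacular and vomeronasal lists held 1 higher and 0 lower genes each. Leaving out null replicate 1, the counts were 3 higher and 1 lower of 7 progenitor markers, 1 higher and 7 lower of 10 sustentacular markers, and 2 higher and 0 lower of 7 vomeronasal markers.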
